A study of Homo sapiens with 6 samples.

Results

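The genes described here are the chains of the extracellular matrix proteins collagen and laminin, the matrix protein fibronectin, and the integrin receptors that bind them. They were taken by symbol: 83 of the 26364 symbols counted in each library, of which 44 were collagen chains, 12 laminin chains, 26 integrin chains and the last FN1. Of the 83, 58 reached 10 counts in at least 3 of the 6 libraries: 29 collagens, 8 laminins, FN1 and 20 integrins. RNA sequencing counted polyadenylated transcripts of ZR-75-30, an established human breast adenocarcinoma line with epithelial cells, in 2 groups of 3 biological replicates. The CDK12 group was infected with a lentivirus made from pLVX-CDK12, and the control group with one made from the empty vector pLVX; both therefore carried a lentivirus and differed in its cargo. CDK12 is a kinase that acts with cyclin K on elongating RNA polymerase II, and the series asks for its targets in this line. The labels give no time after infection, and do not say whether the replicates were infected separately, so a p-value measures a difference against the spread of these libraries only.

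Collagens are trimers of alpha chains wound into a triple helix; some form fibrils, others the sheet of the basement membrane, the surfaces of fibrils or proteins that cross the cell membrane. Laminins are trimers of an alpha, a beta and a gamma chain and, with collagen IV, build the basement membrane on which breast epithelium rests. Integrins are pairs of an alpha and a beta chain: the alpha chain largely sets the ligand, so that alpha1, alpha2, alpha10 and alpha11 bind collagen, alpha3, alpha6 and alpha7 bind laminin, and alpha5 and alphav bind fibronectin and other ligands through the short peptide motif RGD.

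The libraries held between 21178163 and 26543653 counts. CDK12 itself was at 2009, 2240.0 and 2124 CPM in the CDK12 libraries, against 79.0, 81.8 and 72.8 CPM in the controls, so that each library matched its label. CPM is the count scaled to a common library total, adjusted between libraries by TMM. The 83 members together took 0.223% to 0.240% of the counts in the CDK12 libraries and 0.251% to 0.262% in the controls. The epithelial identity of the line was visible in both groups: the 8 epithelial and luminal markers summed to 12774 to 13381 CPM with CDK12 and 14320.0 to 15020.3 CPM in controls, and 3 of them (KRT8, KRT18 and ERBB2) fell. The 5 endothelial markers summed to 1.56 to 2.21 CPM with CDK12 and 2.49 to 3.29 CPM in controls, most of it VWF, which did not pass. All 7 fibroblast markers (DCN, LUM, PDGFRA, PDGFRB, THY1, FAP and POSTN) stayed under 10 counts in every library.

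Lower levels outnumbered higher ones among these genes. By edgeR's quasi-likelihood test with Benjamini-Hochberg adjustment over all 14665 genes tested and a threshold of 0.05, 32 of the 56 members tested passed, while 35.1% of all genes did. Of these, 6 members rose in the CDK12 libraries (16.2% of all genes) and 26 fell (18.9% of all genes). The median log2 fold change was -0.15 over the 56 members and 0.0035 over all genes. The shift did not hold for the median collagen: of 28 tested, 5 rose and 10 fell, with a median of -0.00072. These counts are a description, since 6 members (COL3A1, COL4A6, COL10A1, COL11A1, COL25A1 and ITGA1) met the count limit through control libraries alone and ITGA2B through CDK12 libraries alone. Among the 35 members with a mean of at least 50 counts over the 6 libraries, a limit chosen after the values were seen, 4 rose and 16 fell. Of the 14 collagens among them, 3 rose and 3 fell, with a median log2 fold change of 0.034. Higher genes made up 46.1% of all calls with TMM and 61.7% with total counts as the only scaling; among the members these shares were 18.8% and 21.4%.

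**Figure D1:**
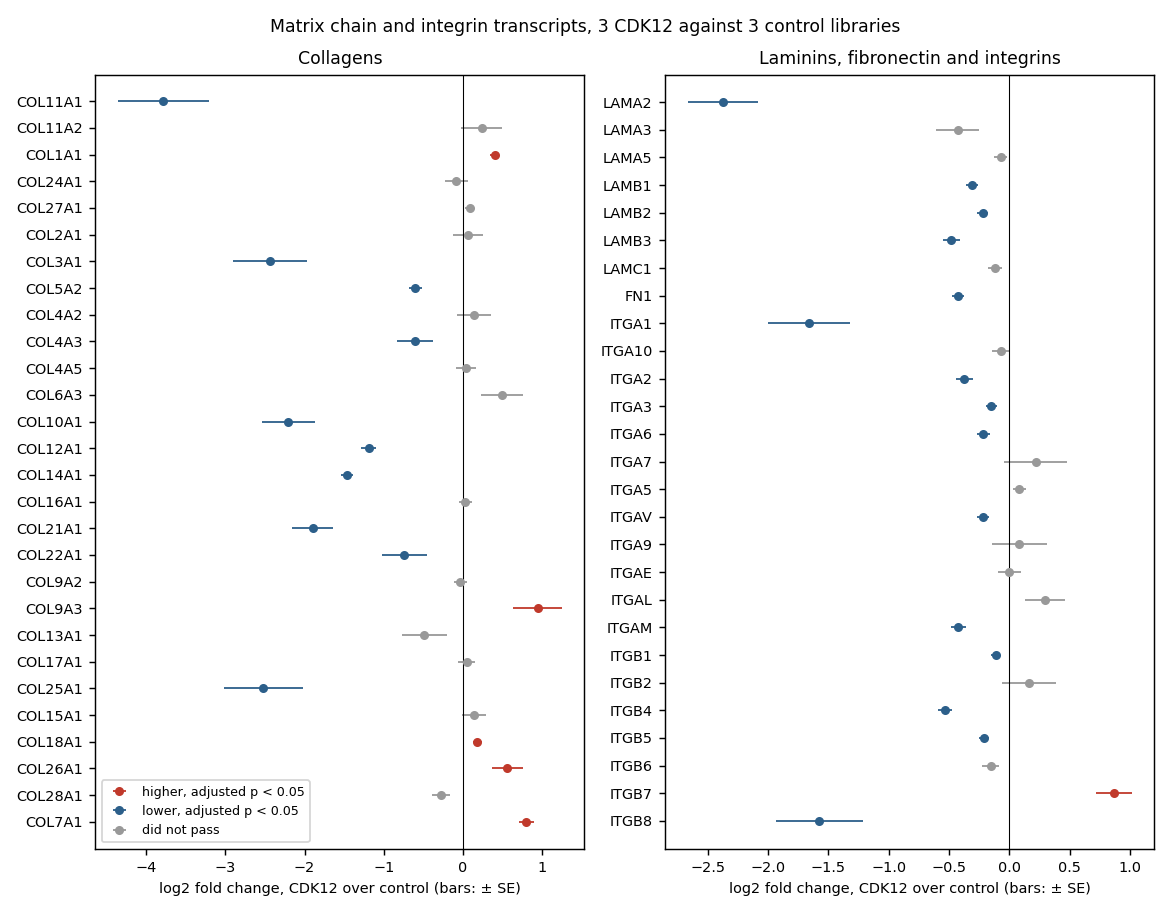
Log2 fold change, CDK12 over control, of 55 of the 56 members tested (points, with SE as bars), with collagens on the left and laminins, fibronectin and integrins on the right, by role. Red points are the 6 that rose, blue 25 that fell and grey the 24 that did not pass; COL11A1 lies farthest left at -3.78, and COL9A3 farthest right at 0.94.

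The limit of 10 counts in 3 libraries left 25 members aside, which are COL1A2, COL5A1, COL5A3, COL4A1, COL4A4, COL6A1, COL6A2, COL6A5, COL6A6, COL8A1, COL8A2, COL9A1, COL19A1, COL20A1, COL23A1, LAMA1, LAMA4, LAMB4, LAMC3, ITGA4, ITGA8, ITGA11, ITGAD, ITGAX and ITGB3. Just inside it, ITGA2B, the alpha chain of the platelet integrin, had 12, 10 and 14 counts in the CDK12 libraries, against 8, 6 and 9 in the controls. Just outside it, COL8A2 had 10, 9 and 5 counts in the CDK12 libraries, against 3, 3 and 10 in the controls. ITGA2B and COL4A6 met the limit but not the filter of the test, and are given as counts only.

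Among the 8 fibril-forming collagens that were tested, 1 was higher and 3 lower, against 16.2% and 18.9% of all genes. Of the 3 lower, COL3A1 and COL11A1 met the count limit through the controls alone, so these counts are a description. COL1A1, the alpha1 chain of collagen I, the main collagen of connective tissue, was at 60.6, 60.0 and 70.8 CPM in the CDK12 libraries, against 50.3, 45.4 and 49.0 CPM in the controls (log2 fold change 0.40, SE 0.059, adjusted p = 6.55e-06). Every CDK12 library lay above every control. Its usual partner COL1A2 had 3, 0 and 1 counts in the CDK12 libraries, against 5, 8 and 7 in the controls, and did not reach the count limit in either group. COL5A2, a chain of collagen V, which is built into collagen I fibrils, was at 14.8, 17.1 and 19.1 CPM in the CDK12 libraries, against 27.6, 25.7 and 23.9 CPM in the controls (log2 fold change -0.60, SE 0.079, adjusted p = 1.1e-06). It fell without overlap, and its partner COL5A1 did not exceed 5 counts in any library.

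COL3A1 and COL11A1, also fibril-forming, were rare in controls and rarer with CDK12. COL3A1 had 1, 3 and 4 counts in the CDK12 libraries, against 14, 13 and 14 in the controls (log2 fold change -2.44, SE 0.47, adjusted p = 0.000181). COL11A1 had 1, 2 and 0 counts in the CDK12 libraries, against 16, 13 and 13 in the controls (log2 fold change -3.78, SE 0.58, adjusted p = 1.02e-05; log2 fold change -4.64 without CDK12 replicate 2). Summed over libraries, the rate of COL11A1 reads with CDK12 was 0.0648 of that in controls, with an exact 95% counting interval of 0.0129 to 0.203 that leaves out the spread between libraries. Both genes met the count limit through the controls alone. COL11A2, another chain of collagen XI, had 34, 17 and 23 counts in the CDK12 libraries, against 17, 18 and 22 in the controls and did not pass (adjusted p = 0.522).

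The remaining fibrillar chains gave no call. COL27A1, after COL1A1 the most counted of them, was at 52.8, 54.3 and 61.4 CPM in the CDK12 libraries, against 56.1, 50.7 and 51.8 CPM in the controls, with overlapping groups (log2 fold change 0.086, adjusted p = 0.257). COL24A1 had a log2 fold change of -0.082 and COL2A1, the cartilage collagen, of 0.061, with adjusted p = 0.685 and 0.833.

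**Figure D2:**
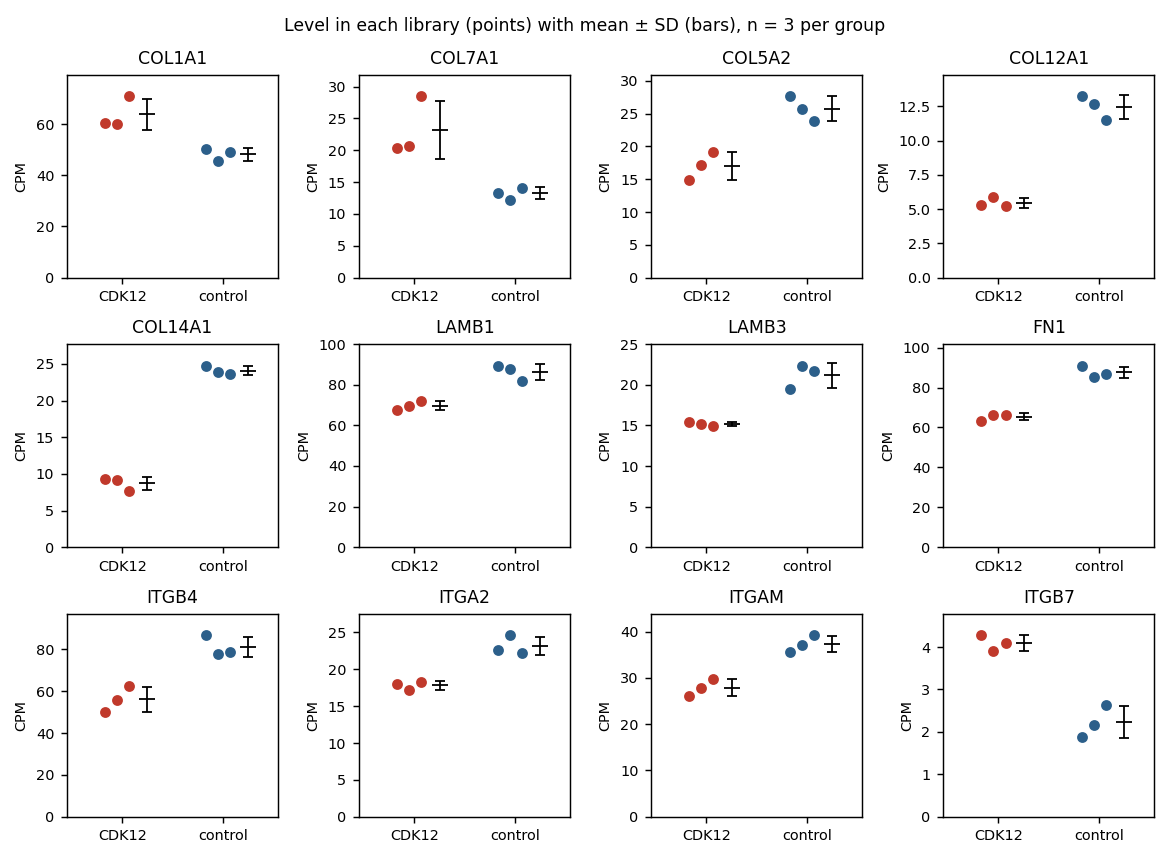
CPM in each library (points) for 12 members, with the mean ± SD of 3 libraries as bars, CDK12 on the left and control on the right of each panel. The 12 are a choice from the members that passed, and the groups do not overlap in any of these panels. COL4A3 and COL18A1, not drawn here, passed with overlapping groups. COL1A1, COL7A1 and ITGB7 are higher with CDK12 and the other 9 are lower.

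COL7A1 had the largest rise among the members with a mean of 50 counts after ITGB7. It encodes the collagen of the anchoring fibrils that tie the epithelial basement membrane to the tissue beneath. COL7A1 was at 20.3, 20.7 and 28.5 CPM in the CDK12 libraries, against 13.4, 12.2 and 14.1 CPM in the controls (log2 fold change 0.80, SE 0.098, adjusted p = 3.19e-07). CDK12 replicate 3 was the highest, and the lowest CDK12 library still lay above the highest control. FACIT collagens, which sit on the surface of fibrils, held the largest falls among collagens with a mean of 50 counts. COL12A1 was at 5.28, 5.85 and 5.21 CPM in the CDK12 libraries, against 13.2, 12.7 and 11.5 CPM in the controls (log2 fold change -1.19, SE 0.097, adjusted p = 1.68e-10). COL14A1, its close relative, was at 9.26, 9.14 and 7.71 CPM in the CDK12 libraries, against 24.7, 23.8 and 23.6 CPM in the controls (log2 fold change -1.46, SE 0.079, adjusted p = 3.24e-14). The 3 CDK12 libraries of each lay well below the lowest control.

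The promoter of COL7A1 is shown with that of COL12A1, since both genes are well counted and moved in opposite directions. The windows are from RefSeq on GRCh38.p14, not the hg19 build of the files, and run 250 bases before to 50 after the annotated start. COL7A1 lies at chr3:48595280-48595579, minus strand and COL12A1 at chr6:75206004-75206303, minus strand. Capitals mark TATAAA and the GC box GGGCGG, searched on both strands.
COL7A1: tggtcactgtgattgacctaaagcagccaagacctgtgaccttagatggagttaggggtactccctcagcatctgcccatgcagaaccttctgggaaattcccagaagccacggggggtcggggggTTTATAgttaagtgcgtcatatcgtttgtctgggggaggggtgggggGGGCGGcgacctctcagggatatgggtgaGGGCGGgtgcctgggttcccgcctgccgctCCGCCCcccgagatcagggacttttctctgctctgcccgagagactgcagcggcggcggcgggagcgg
COL12A1: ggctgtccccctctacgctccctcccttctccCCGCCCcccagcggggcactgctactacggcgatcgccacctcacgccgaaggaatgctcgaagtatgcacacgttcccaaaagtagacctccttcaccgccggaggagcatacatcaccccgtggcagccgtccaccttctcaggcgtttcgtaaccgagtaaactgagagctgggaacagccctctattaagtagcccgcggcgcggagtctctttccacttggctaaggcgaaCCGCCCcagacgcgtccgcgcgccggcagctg
Both windows hold the GC box, as do 45.0% of all 35116 promoter windows in the same table, and the COL7A1 window also holds TATAAA, as do 11.5%. The TATAAA of COL7A1 begins 124 bases before the start, on the opposite strand. A match describes the letters of the window and nothing more.

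The other FACIT chains divided. COL21A1 had 9, 17 and 13 counts in the CDK12 libraries, against 35, 47 and 51 in the controls (log2 fold change -1.90, SE 0.26, adjusted p = 1.89e-06), and COL22A1 had 14, 15 and 11 counts in the CDK12 libraries, against 20, 16 and 25 in the controls (log2 fold change -0.74, SE 0.28, adjusted p = 0.0432). The call of COL22A1 was lost under 10 of the 13 alternatives, among them without CDK12 replicate 1 (0.0925), without CDK12 replicate 2 (0.0542), without CDK12 replicate 3 (0.125), without control replicate 1 (0.0879) or without control replicate 3 (0.174), with the adjusted p in brackets; over the 13 alternatives, the adjusted p ran between 0.0424 and 0.186. COL9A3, a chain of collagen IX, had 22, 21 and 21 counts in the CDK12 libraries, against 12, 11 and 7 in the controls (log2 fold change 0.94, SE 0.31, adjusted p = 0.0181). It rose without overlap, but the call was lost without control replicate 3 (0.134) and with the DESeq2 Wald test (0.103); over the 13 alternatives, the adjusted p ran between 0.0134 and 0.134. Exons of COL9A3 overlap by 45 bases those of TCFL5 on the opposite strand, and TCFL5 was also higher, at a mean of 29.9 CPM with CDK12 and 22.4 CPM in controls. The part of TCFL5 in the COL9A3 count was not tested. COL9A2, by contrast well counted, was at 17.6, 15.9 and 19.97 CPM in the CDK12 libraries, against 17.2, 17.6 and 19.8 CPM in the controls, and COL16A1 had a log2 fold change of 0.031; neither passed (adjusted p = 0.783 and 0.793).

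Collagen IV, the network of the basement membrane, was scarce in this line. COL4A5 was its most counted chain, at 4.05, 4.41 and 3.71 CPM in the CDK12 libraries, against 4.35, 3.79 and 3.73 CPM in the controls, with overlapping groups (log2 fold change 0.036, adjusted p = 0.856). COL4A6, which starts on the opposite strand 380 bases from COL4A5, had 4, 4 and 4 counts in the CDK12 libraries, against 17, 18 and 10 in the controls. The lowest control of COL4A6 was above every CDK12 library, but the gene met the count limit through the controls alone and was too scarce to be tested. Both promoter windows are printed because the 2 genes share a stretch of promoter. Capitals mark the 121 shared bases, which read as reverse complements of each other. COL4A5 lies at chrX:108439588-108439887, plus strand and the nearer of the 2 RefSeq starts of COL4A6 at chrX:108439409-108439708, minus strand (RefSeq, GRCh38.p14).
COL4A5: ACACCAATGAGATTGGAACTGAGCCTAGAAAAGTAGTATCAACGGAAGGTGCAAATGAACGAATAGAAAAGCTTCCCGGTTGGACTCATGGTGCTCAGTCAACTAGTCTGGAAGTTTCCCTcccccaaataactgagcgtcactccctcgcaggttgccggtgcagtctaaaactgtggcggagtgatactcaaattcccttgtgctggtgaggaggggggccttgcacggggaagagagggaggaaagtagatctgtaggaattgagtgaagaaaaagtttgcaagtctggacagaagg
COL4A6: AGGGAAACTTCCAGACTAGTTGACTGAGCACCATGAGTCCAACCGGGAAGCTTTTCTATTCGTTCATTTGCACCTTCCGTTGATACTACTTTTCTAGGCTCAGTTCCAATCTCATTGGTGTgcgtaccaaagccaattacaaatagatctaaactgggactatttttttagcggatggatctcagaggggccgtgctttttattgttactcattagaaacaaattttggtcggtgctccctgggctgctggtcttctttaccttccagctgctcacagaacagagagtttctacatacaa
COL4A3 and COL4A4 are likewise divergent, with starts 419 bases apart. COL4A3 had 23, 31 and 23 counts in the CDK12 libraries, against 35, 26 and 46 in the controls (log2 fold change -0.61, SE 0.23, adjusted p = 0.0376), with overlapping groups, and COL4A4 had 7, 6 and 5 counts in the CDK12 libraries, against 5, 6 and 8 in the controls. Among other settings, the call of COL4A3 was lost without CDK12 replicate 1 (0.139), without CDK12 replicate 3 (0.0936), without control replicate 1 (0.0722) or without control replicate 3 (0.218), with total counts as the scaling (0.0513) and with the DESeq2 Wald test (0.155); over the 14 alternatives, the adjusted p ran between 0.0224 and 0.218. COL4A2 was at 1.38, 1.40 and 1.54 CPM in the CDK12 libraries, against 1.58, 1.34 and 1.01 CPM in the controls and did not pass (adjusted p = 0.65), and COL4A1, the chain with which it normally assembles, had 8, 2 and 6 counts in the CDK12 libraries, against 4, 2 and 7 in the controls.

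Collagens of other kinds gave 2 higher and 2 lower calls, where 16.2% and 18.9% of all genes were called, and the rest did not pass. COL10A1, a network collagen known from growth plate cartilage, had 3, 9 and 8 counts in the CDK12 libraries, against 23, 26 and 36 in the controls (log2 fold change -2.20, SE 0.34, adjusted p = 9.72e-06). COL25A1, a collagen that crosses the membrane, had 0, 4 and 7 counts in the CDK12 libraries, against 30, 13 and 16 in the controls (log2 fold change -2.52, SE 0.49, adjusted p = 0.000246). Its log2 fold change was -1.90 without CDK12 replicate 1 and -3.38 without CDK12 replicate 3, and passed in both. COL10A1 and COL25A1 met the count limit through the controls alone. COL18A1, a basement membrane collagen whose end fragment is endostatin, was at 65.8, 67.0 and 77.1 CPM in the CDK12 libraries, against 65.8, 58.1 and 61.2 CPM in the controls (log2 fold change 0.18, SE 0.058, adjusted p = 0.0161). Its groups overlapped, and the call was lost without CDK12 replicate 3 (0.173) or without control replicate 2 (0.103); without CDK12 replicate 3 the log2 fold change was 0.11, and over the 14 alternatives, the adjusted p ran between 0.00254 and 0.173. COL26A1 had 48, 54 and 54 counts in the CDK12 libraries, against 31, 25 and 40 in the controls (log2 fold change 0.56, SE 0.19, adjusted p = 0.0238), a rise lost without CDK12 replicate 2 (0.0787), without CDK12 replicate 3 (0.0767), without control replicate 1 (0.0696) or without control replicate 2 (0.0967) and with the DESeq2 Wald test (0.104); over the 14 alternatives, the adjusted p ran between 0.0124 and 0.104.

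Of the same kinds, COL17A1, the hemidesmosome collagen of epithelia, was at 7.32, 6.43 and 7.42 CPM in the CDK12 libraries, against 6.68, 7.48 and 6.41 CPM in the controls and did not pass (adjusted p = 0.761). COL15A1, the relative of COL18A1, was at 2.90, 2.92 and 3.54 CPM in the CDK12 libraries, against 2.64, 3.21 and 2.68 CPM in the controls (adjusted p = 0.504). COL13A1 had 16, 17 and 18 counts in the CDK12 libraries, against 29, 21 and 15 in the controls and COL6A3, the only chain of the beaded filament collagen VI that could be tested, 41, 20 and 29 counts in the CDK12 libraries, against 19, 23 and 16 in the controls; both had overlapping groups (adjusted p = 0.193 and 0.156). With TMM scaling, COL28A1 was lower in every CDK12 library, at 5.32, 5.64 and 4.67 CPM in the CDK12 libraries, against 6.72, 5.80 and 6.41 CPM in the controls, with an adjusted p of 0.0539. It passed without CDK12 replicate 2 (0.0463) or without control replicate 2 (0.0391); over the 14 alternatives, the adjusted p ran between 0.0391 and 0.203.

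Laminin chains were lower where they passed: 5 of the 8 tested fell and 0 rose, where 18.9% and 16.2% of all genes did. The laminin count was the same under every other scaling tried. LAMB3, the beta3 chain found in an epithelial basement membrane laminin, was at 15.4, 15.2 and 14.9 CPM in the CDK12 libraries, against 19.5, 22.4 and 21.8 CPM in the controls (log2 fold change -0.48, SE 0.072, adjusted p = 7.75e-06). Its groups were far apart. LAMA3, the alpha3 chain of the same trimer, was at 1.6, 1.85 and 1.92 CPM in the CDK12 libraries, against 2.02, 2.69 and 2.52 CPM in the controls, also lower in every CDK12 library, with an adjusted p of 0.0571 (log2 fold change -0.43). It passed without control replicate 1 (0.0342); over the 14 alternatives, the adjusted p ran between 0.0342 and 0.194. Of the 7 basal markers, 2 fell, KRT17 (log2 fold change -1.46) and TP63 (-2.99), and 1 rose, ACTA2 (0.48). KRT17 had 8, 7 and 8 counts in the CDK12 libraries, against 17, 18 and 23 in the controls. TP63 had 7, 8 and 6 counts in the CDK12 libraries, against 52, 50 and 52 in the controls. Both reached 10 counts in control libraries alone. Summed, the 7 basal markers held 10.5 to 11.5 CPM with CDK12 and 11.1 to 11.5 CPM in controls. The basal markers KRT5, KRT14 and CNN1 did not exceed 3 counts in any library, and the part of basal expression in the laminin values was not tested.

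LAMB3 and FN1 are shown by their promoter windows because both genes fell and the windows printed hold different motifs (RefSeq, GRCh38.p14). LAMB3 has 3 RefSeq starts. The one printed, at chr1:209651325-209651624, minus strand, was chosen because its window holds TGANTCA, the AP-1 motif. The windows of the other LAMB3 starts hold the GC box but not TGANTCA. FN1 lies at chr2:215436019-215436318, minus strand. Capitals mark TGANTCA, the cAMP response element TGACGTCA and the GC box GGGCGG on either strand.
LAMB3: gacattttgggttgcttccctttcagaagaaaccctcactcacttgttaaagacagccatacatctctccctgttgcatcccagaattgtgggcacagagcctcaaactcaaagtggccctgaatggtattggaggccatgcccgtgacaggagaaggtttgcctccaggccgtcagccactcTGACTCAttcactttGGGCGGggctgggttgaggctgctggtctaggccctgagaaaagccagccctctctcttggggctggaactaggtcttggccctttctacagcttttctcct
FN1: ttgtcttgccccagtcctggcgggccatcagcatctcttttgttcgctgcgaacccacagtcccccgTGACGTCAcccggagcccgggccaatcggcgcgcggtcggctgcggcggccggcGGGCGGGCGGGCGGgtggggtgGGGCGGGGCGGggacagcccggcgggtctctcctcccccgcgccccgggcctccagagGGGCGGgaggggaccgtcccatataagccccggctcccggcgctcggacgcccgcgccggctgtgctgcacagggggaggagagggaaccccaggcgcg
TGANTCA occurs in 7.71% of the 35116 windows and in 4 of the 61 windows that match members at the count limit; TGACGTCA occurs in 1.85% and in 1 of the 61, that of FN1. The AP-1 motif of LAMB3 begins 67 bases before the printed start, and the TGACGTCA of FN1 183 bases before its start. Here too a match describes the letters of the window and nothing more.

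LAMB2, LAMB1, LAMA5 and LAMC1 changed less than LAMB3. LAMB2, the beta2 chain, was at 481, 504 and 537 CPM in the CDK12 libraries, against 618, 564 and 592 CPM in the controls (log2 fold change -0.22, SE 0.044, adjusted p = 0.000312), and LAMB1, the beta1 chain, at 67.6, 69.4 and 72.0 CPM in the CDK12 libraries, against 89.3, 87.6 and 81.9 CPM in the controls (log2 fold change -0.31, SE 0.048, adjusted p = 1.31e-05); neither pair of groups overlapped. LAMA5, the alpha5 chain of laminin-511 and laminin-521, was at 188, 206 and 226 CPM in the CDK12 libraries, against 232, 201 and 217 CPM in the controls and LAMC1, the gamma1 chain of most laminins, at 37.2, 39.3 and 38.3 CPM in the CDK12 libraries, against 42.5, 41.7 and 40.5 CPM in the controls. Neither passed (log2 fold changes -0.069 and -0.12, adjusted p = 0.334 and 0.0901). LAMA2, the alpha2 chain known from muscle, had 6, 10 and 7 counts in the CDK12 libraries, against 43, 29 and 38 in the controls (log2 fold change -2.38, SE 0.29, adjusted p = 3.14e-07), the largest fall among laminins and at low counts.

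Fibronectin, the ligand of integrin alpha5 beta1, fell. FN1 was at 63.3, 66.4 and 66.3 CPM in the CDK12 libraries, against 90.9, 85.5 and 86.6 CPM in the controls (log2 fold change -0.43, SE 0.047, adjusted p = 5.1e-08), and its highest CDK12 library stood below its lowest control.

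Integrin chains were mostly lower where they passed, with 1 higher and 10 lower of 19 tested, against 16.2% and 18.9% of all genes. With total counts as the scaling, 8 integrin chains were lower. Among alpha chains that bind collagen, ITGA2 was at 18.1, 17.2 and 18.3 CPM in the CDK12 libraries, against 22.7, 24.6 and 22.2 CPM in the controls (log2 fold change -0.37, SE 0.069, adjusted p = 0.000113). ITGA1 had 9, 8 and 4 counts in the CDK12 libraries, against 23, 19 and 19 in the controls (log2 fold change -1.66, SE 0.34, adjusted p = 0.000379), a gene that met the count limit through the controls alone. Its exons share 475 bases with PELO, which did not pass (log2 fold change 0.035). ITGA10, the third collagen receptor with counts, was at 18.8, 20.3 and 17.0 CPM in the CDK12 libraries, against 19.6, 20.1 and 19.2 CPM in the controls, with overlapping groups (adjusted p = 0.488).

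Both main laminin receptors of the alpha kind were slightly lower. ITGA6 was at 53.3, 54.2 and 49.6 CPM in the CDK12 libraries, against 63.1, 59.6 and 59.8 CPM in the controls (log2 fold change -0.22, SE 0.051, adjusted p = 0.00171) and ITGA3 at 105, 107 and 110.0 CPM in the CDK12 libraries, against 122, 115 and 120.4 CPM in the controls (log2 fold change -0.15, SE 0.043, adjusted p = 0.00838). Neither gene's groups overlapped, but the call of ITGA3 was lost without control replicate 1 (0.0556) and with total counts as the scaling (0.0534); over the 14 alternatives, the adjusted p ran between 0.00688 and 0.0556. ITGA7 had 21, 27 and 25 counts in the CDK12 libraries, against 24, 15 and 18 in the controls and did not pass (adjusted p = 0.551).

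Of the RGD-binding alpha chains tested, 1 fell. ITGAV was at 74.2, 85.8 and 78.4 CPM in the CDK12 libraries, against 92.4, 94.6 and 89.6 CPM in the controls (log2 fold change -0.21, SE 0.050, adjusted p = 0.00143). ITGA5, the fibronectin receptor chain, was at 48.5, 52.3 and 53.0 CPM in the CDK12 libraries, against 48.9, 49.0 and 47.2 CPM in the controls and did not pass (log2 fold change 0.083, adjusted p = 0.228). ITGA9 had 27, 33 and 40 counts in the CDK12 libraries, against 24, 26 and 36 in the controls (adjusted p = 0.815). Its exons share 225 bases with ITGA9-AS1 on the opposite strand, which rose to 1.19 CPM with CDK12, against 0.587 CPM in controls, so that the ITGA9 count is uncertain.

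Among integrin beta chains, ITGB4, which pairs with alpha6 in hemidesmosomes, had the largest fall of those with a mean of 50 counts. ITGB4 was at 50.3, 55.7 and 62.4 CPM in the CDK12 libraries, against 86.6, 77.6 and 78.9 CPM in the controls (log2 fold change -0.53, SE 0.060, adjusted p = 8.2e-08). ITGB1, the shared partner of most matrix receptors, was at 378, 384 and 366 CPM in the CDK12 libraries, against 399, 425 and 397 CPM in the controls (log2 fold change -0.11, SE 0.041, adjusted p = 0.0299). That small fall did not pass without CDK12 replicate 3 (0.118) or without control replicate 2 (0.157), nor with upper-quartile scaling (0.141) or total counts (0.169); over the 14 alternatives, the adjusted p ran between 0.0254 and 0.169. ITGB5, a partner of alphav, was at 188, 194 and 199.7 CPM in the CDK12 libraries, against 224, 217 and 231 CPM in the controls (log2 fold change -0.21, SE 0.042, adjusted p = 0.000257). ITGB6, another partner of alphav and typical of epithelia, was at 19.1, 22.0 and 20.5 CPM in the CDK12 libraries, against 23.7, 21.9 and 22.8 CPM in the controls and did not pass (adjusted p = 0.0818), except without CDK12 replicate 2 (0.0402); over the 14 alternatives, the adjusted p ran between 0.0402 and 0.301. ITGB8 had 10, 4 and 5 counts in the CDK12 libraries, against 15, 18 and 19 in the controls (log2 fold change -1.57, SE 0.36, adjusted p = 0.00128).

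Integrins known from leukocytes were also counted. ITGAM, the alpha chain of Mac-1, was at 26.1, 27.8 and 29.8 CPM in the CDK12 libraries, against 35.7, 37.1 and 39.2 CPM in the controls (log2 fold change -0.42, SE 0.062, adjusted p = 6.07e-06). ITGB7, which pairs with alphaE to bind E-cadherin and with alpha4, was at 4.27, 3.91 and 4.09 CPM in the CDK12 libraries, against 1.89, 2.16 and 2.64 CPM in the controls (log2 fold change 0.87, SE 0.15, adjusted p = 4.68e-05). It was the only integrin chain that rose, and its groups did not overlap. Its exons share 1474 bases with ZNF740 on the opposite strand, which did not pass, at means of 62.8 CPM with CDK12 and 61.0 CPM in controls; without a stated strand setting the ITGB7 count is uncertain. ITGAE was at 7.88, 7.33 and 7.59 CPM in the CDK12 libraries, against 7.21, 7.58 and 8.0 CPM in the controls, with no call (adjusted p = 0.995). ITGAL and ITGB2, the 2 chains of LFA-1, had log2 fold changes of 0.30 and 0.16 and did not pass. ITGB2 was far scarcer than ITGAM, at 1.52, 1.40 and 1.29 CPM in the CDK12 libraries, against 1.58, 0.815 and 1.34 CPM in the controls. Of 4 leukocyte markers, PTPRC fell, with 10, 10 and 7 counts in the CDK12 libraries, against 69, 59 and 74 in the controls, CD14 rose, with 23, 16 and 25 counts in the CDK12 libraries, against 12, 12 and 8 in the controls, CD68 did not pass, and CD3E did not exceed 3 counts. Their sum was 2.96 to 3.17 CPM with CDK12 and 4.91 to 6.14 CPM in controls. The part of such cells or of such expression in these values was not tested. In bulk RNA, fewer cells with a transcript and less of it per cell cannot be told apart.

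Levels were set side by side per kilobase of exon, since a longer transcript gives more reads. Exon lengths were the union of GENCODE 29 basic exons. Among integrin beta chains, ITGB1 led, with 95.7 ± 2.35 CPM per kb with CDK12 and 104 ± 4.02 in controls (SD, n = 3), followed by ITGB5 with 44.3 ± 1.34 CPM per kb with CDK12 and 51.3 ± 1.58 in controls and ITGB4 with 9.07 ± 0.981 CPM per kb with CDK12 and 13.1 ± 0.792 in controls. Among alpha chains the laminin receptor ITGA3 led, with 22.0 ± 0.480 CPM per kb with CDK12 and 24.4 ± 0.725 in controls. ITGA5, with 11.5 ± 0.541 CPM per kb with CDK12 and 10.9 ± 0.217 in controls, ITGAV, with 11.0 ± 0.815 CPM per kb with CDK12 and 12.8 ± 0.348 in controls, and ITGA6, with 8.97 ± 0.411 CPM per kb with CDK12 and 10.4 ± 0.342 in controls, lay close together; in the CDK12 libraries the ranges of ITGA5 and ITGAV overlapped, and in the controls those of ITGA5 and ITGA6. The collagen receptor chains ITGA10, with 3.55 ± 0.322 CPM per kb with CDK12 and 3.73 ± 0.0867 in controls, and ITGA2, with 2.27 ± 0.0753 CPM per kb with CDK12 and 2.94 ± 0.162 in controls, were lower than these in both groups.

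**Figure D3:**
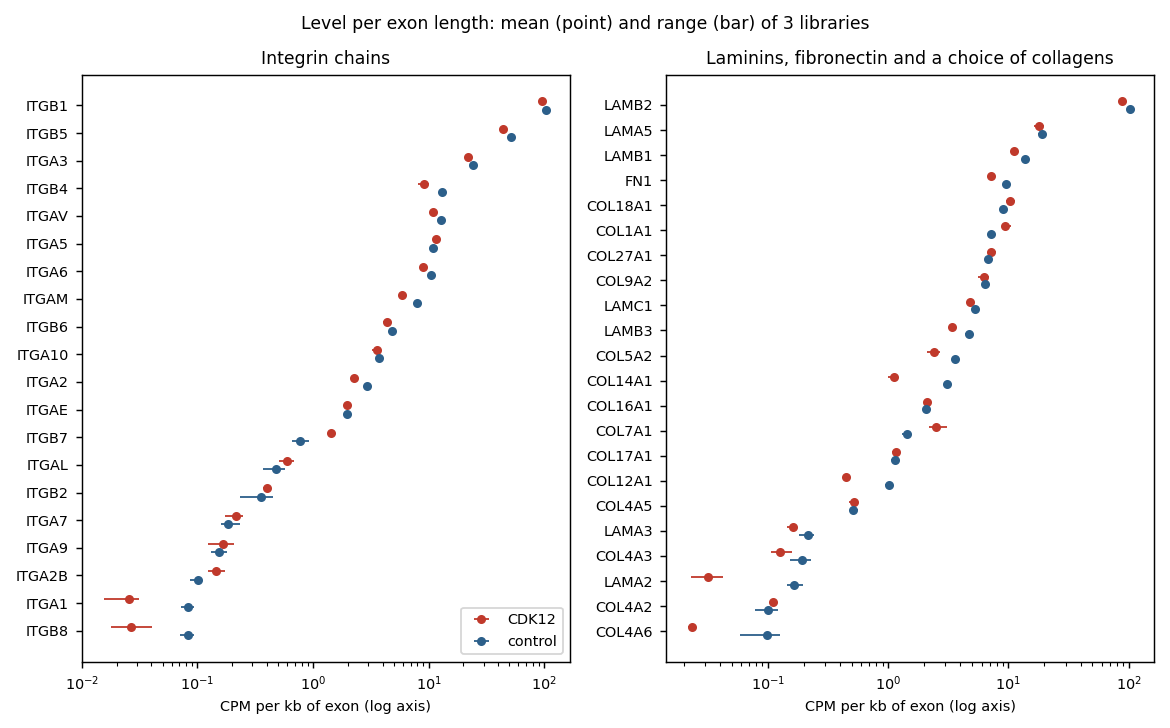
CPM per kb of exon on a log axis, for integrin chains on the left and for laminins, fibronectin and a choice of collagens on the right (point: mean; bar: range of 3 libraries; CDK12 in red above control in blue). ITGB1 and LAMB2 head the panels in both groups.

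On the side of the ligands, laminin chains led. LAMB2 was at 88.1 ± 4.94 CPM per kb with CDK12 and 103 ± 4.68 in controls and LAMA5 at 18.1 ± 1.67 CPM per kb with CDK12 and 19.0 ± 1.36 in controls, ahead of LAMB1, at 11.2 ± 0.357 CPM per kb with CDK12 and 13.9 ± 0.623 in controls. The gamma1 chain that LAMB2 and LAMA5 need in laminin-521 was at 4.85 ± 0.130 CPM per kb with CDK12 and 5.27 ± 0.129 in controls. Fibronectin was at 7.18 ± 0.192 CPM per kb with CDK12 and 9.64 ± 0.313 in controls and COL18A1, the highest collagen per length, at 10.2 ± 0.912 CPM per kb with CDK12 and 9.04 ± 0.569 in controls, with COL1A1 at 9.48 ± 0.906 CPM per kb with CDK12 and 7.17 ± 0.374 in controls; the ranges of these 2 collagens overlapped with CDK12. FN1 thus stood below COL1A1 with CDK12 and above it in the controls, with no overlap of the library ranges in either group. Among receptor chains, laminin-binding ITGA3 was above RGD-binding ITGA5 and ITGAV, and these were above collagen-binding ITGA10 and ITGA2, in both groups. The other laminin-binding chains did not share the place of ITGA3. ITGA6, at means of 8.97 CPM per kb with CDK12 and 10.4 in controls, was below the means of ITGA5 and ITGAV. ITGA7 was at 0.217 CPM per kb with CDK12 and 0.185 in controls.

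Ratios of partner chains within a library do not depend on the scaling between libraries, and were compared for 16 chosen pairs of tested genes; other partner pairs were not compared. With 3 against 3 libraries an exact two-sided permutation test cannot give a p under 0.1, and the smallest adjusted p over the 16 pairs was 0.178, so no pair could pass. In hemidesmosomal alpha6 beta4, log2 ITGA6/ITGB4 was 0.085, -0.040 and -0.33 in the CDK12 libraries, against -0.46, -0.38 and -0.40 in the controls, a difference of 0.32 without overlap (exact permutation p = 0.1). CDK12 replicate 3 lay nearest to the controls.

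For the beta1 receptors, log2 ITGA2/ITGB1 was -4.39, -4.48 and -4.32 in the CDK12 libraries, against -4.13, -4.11 and -4.16 in the controls (difference -0.26), and log2 ITGA5/ITGB1 was -2.96, -2.88 and -2.79 in the CDK12 libraries, against -3.03, -3.12 and -3.07 in the controls (difference 0.20). Relative to ITGB1, ITGA2 was lower and ITGA5 higher with CDK12, without overlap in either case. ITGA10, the collagen-binding chain with the higher level per kb, was not among the pairs; its log2 fold change was -0.069, against -0.11 for ITGB1. The ratios of ITGA3 and ITGA6 to ITGB1 differed by -0.034 and -0.10 and overlapped, as did that of ITGAV to ITGB1 (-0.10), to ITGB5 (-0.0060) and to ITGB6 (-0.063).

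Differences over 0.5 in a log2 ratio were found for the 4 pairs that follow. Log2 COL11A1/COL11A2 differed by -3.87 with 0.5 added to each count and by -2.77 with 2 added, and COL11A1 met the count limit through the controls alone. Log2 ITGAV/ITGB8 differed by 1.40 with 0.5 added to each count and by 1.20 with 2 added. ITGB8 was scarce, with 10, 4 and 5 counts in the CDK12 libraries, against 15, 18 and 19 in the controls. Log2 COL9A2/COL9A3 differed by -0.98 and ITGAE/ITGB7 by -0.88. COL9A3 and ITGB7 share exon bases with other genes, so both ratios are uncertain. Among laminin chains, log2 LAMA5/LAMB1 differed by 0.24, LAMB1/LAMC1 by -0.19, LAMB2/LAMC1 by -0.10 and LAMA3/LAMB3 by 0.060; the last 2 overlapped.

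**Figure D4:**
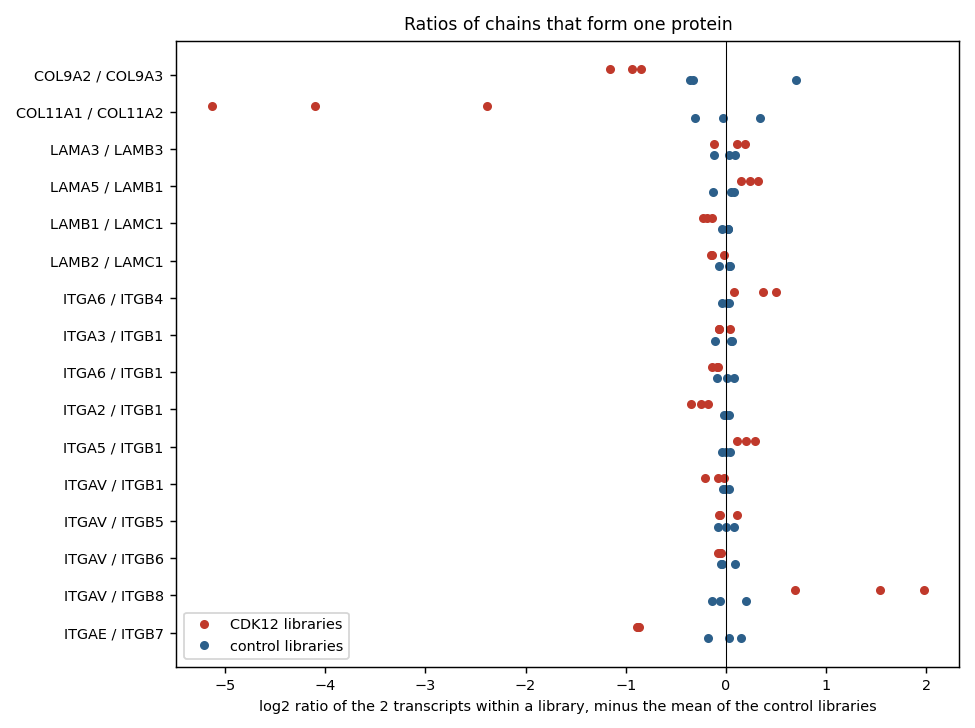
Log2 ratio of 2 partner transcripts in each library, minus the mean of the control libraries, for 16 pairs (red: CDK12 libraries, above; blue: control libraries, below). COL11A1/COL11A2 lies farthest to the left (-3.87) and ITGAV/ITGB8 farthest to the right (1.40), while ITGAV/ITGB5 is centred near 0. COL11A1 met the count limit through the control libraries alone, and ITGB8 had 10, 4 and 5 counts in the CDK12 libraries.

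Other genes of matrix adhesion and collagen making were also called lower more often than higher. Their lists were chosen with earlier results of these data known, so the counts are a description. Of 85 such symbols in the files, from 4 lists, 74 were tested; 42 fell and 6 rose, where 18.9% and 16.2% of all genes did, and the median log2 fold change was -0.18. With total counts as the scaling 9 rose and 36 fell, and without control replicate 3, 3 rose and 37 fell. Among 26 genes of integrin activation and focal adhesions, 14 fell and 1 rose. The focal adhesion proteins TNS3 (265 ± 10.9 CPM with CDK12 and 353 ± 13.1 CPM in controls as mean ± SD, n = 3 each, log2 fold change -0.41) and PXN (166 ± 1.93 CPM with CDK12 and 213 ± 3.02 CPM in controls, -0.36) fell, as did the actin crosslinkers FLNA (-0.37) and ACTN4 (-0.30). TNS2, a relative of TNS3, rose (0.20) with overlapping groups, a call lost without CDK12 replicate 3 (0.131), without control replicate 2 (0.0868) or without control replicate 3 (0.08), with the adjusted p in brackets; over the 14 alternatives, the adjusted p ran between 0.00516 and 0.131.

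Of 15 other matrix receptors tested, 11 fell and 1 rose, where 18.9% and 16.2% of all genes did. The syndecans SDC1 (285 ± 3.83 CPM with CDK12 and 393 ± 9.82 CPM in controls, log2 fold change -0.46), SDC4 (-0.41) and SDC2 (-0.76) fell, as did the laminin receptor DAG1 (485 ± 11.1 CPM with CDK12 and 583 ± 6.49 CPM in controls, -0.27). ENG, a co-receptor of TGF-beta ligands, rose (2.74 ± 0.0951 CPM with CDK12 and 1.68 ± 0.218 CPM in controls, 0.71). Of 10 basement membrane and hemidesmosome partners, 6 fell, led by AGRN (175 ± 15.8 CPM with CDK12 and 240.2 ± 14.6 CPM in controls, -0.46), CD151 (-0.29), EFEMP1 (-0.35) and HSPG2 (-0.41), and NID2 rose (0.53). The call of NID2 was lost without CDK12 replicate 1 (0.106), without control replicate 1 (0.07) or without control replicate 3 (0.0531) and with the DESeq2 Wald test (0.0806); over the 14 alternatives, the adjusted p ran between 0.00753 and 0.106. CD151 is a tetraspanin that binds laminin receptors, and AGRN and HSPG2 encode the basement membrane proteoglycans agrin and perlecan.

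Of 23 genes that fold, modify or crosslink collagen, 11 fell and 3 rose, where 18.9% and 16.2% of all genes did. LOXL1, a crosslinking enzyme, fell (51.9 ± 2.28 CPM with CDK12 and 73.8 ± 4.11 CPM in controls, log2 fold change -0.51), as did the lysyl hydroxylase PLOD1 (-0.24) and the collagen glycosyltransferase COLGALT1 (-0.23). TLL1, a protease that processes procollagen, had 0, 2 and 5 counts in the CDK12 libraries, against 28, 17 and 14 in the controls (log2 fold change -3.14, SE 0.52, adjusted p = 2.68e-05). TLL1 met the count limit through the controls alone, so its place among the 11 that fell is a description. Its log2 fold change ran between -4.30 and -2.53 when 1 library was left out. That value was lowest without CDK12 replicate 3 and highest without CDK12 replicate 1. P4HA1, a catalytic chain of prolyl 4-hydroxylase, rose (56.8 ± 1.36 CPM with CDK12 and 48.9 ± 2.64 CPM in controls, 0.22), and so did P3H3 (10.9 ± 0.475 CPM with CDK12 and 8.52 ± 1.28 CPM in controls, 0.35), of the prolyl 3-hydroxylase family. The call of P3H3 was lost without control replicate 2 (0.0615); over the 14 alternatives, the adjusted p ran between 0.00149 and 0.0615.

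Gene spans of the members, by GENCODE 29, ran from 12.01 kb for LAMB2 to 633 kb for LAMA2 among the 56 tested. Of the 35 members with a mean of 50 counts, 14 span over 100 kb, and of these 6 fell and 1 rose (median log2 fold change -0.14). Of the 15 that span 30 to 100 kb, 9 fell and 1 rose (median -0.21), and of the 6 that span up to 30 kb, 1 fell and 2 rose (median 0.025). Of all 56 members tested, 26 span over 100 kb, and of these 13 fell and 2 rose. Between 30 and 100 kb 12 of 22 fell and 1 rose, and up to 30 kb 1 of 8 fell and 3 rose. The limit of 50 counts was chosen after the values were seen, and the part of gene span in the falls was not tested. Over all genes, 22.5% fell and 12.4% rose over 100 kb, 16.7% fell and 18.2% rose between 30 and 100 kb, and 20.1% fell and 16.2% rose up to 30 kb. Spearman's rho between span and log2 fold change was -0.27 across the 35 members and -0.073 across the 14 of them over 100 kb. Across all 56 members tested it was -0.41, and across the 26 of them over 100 kb -0.34. Across 13777 genes with a span it was -0.051, and across the 2669 of them over 100 kb -0.22. Genes of the same libraries are not independent. Members at lower counts held the largest falls. LAMA2 (633 kb), COL21A1 (338 kb), COL25A1 (494 kb) and COL11A1 (232 kb) fell, as did COL3A1 (38.4 kb) and COL10A1 (39.8 kb), which span less than 100 kb. Of these, COL25A1, COL11A1, COL3A1 and COL10A1 met the count limit through the controls alone. COL24A1 (428 kb) and ITGA9 (371 kb) are long and did not pass.

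**Figure D5:**
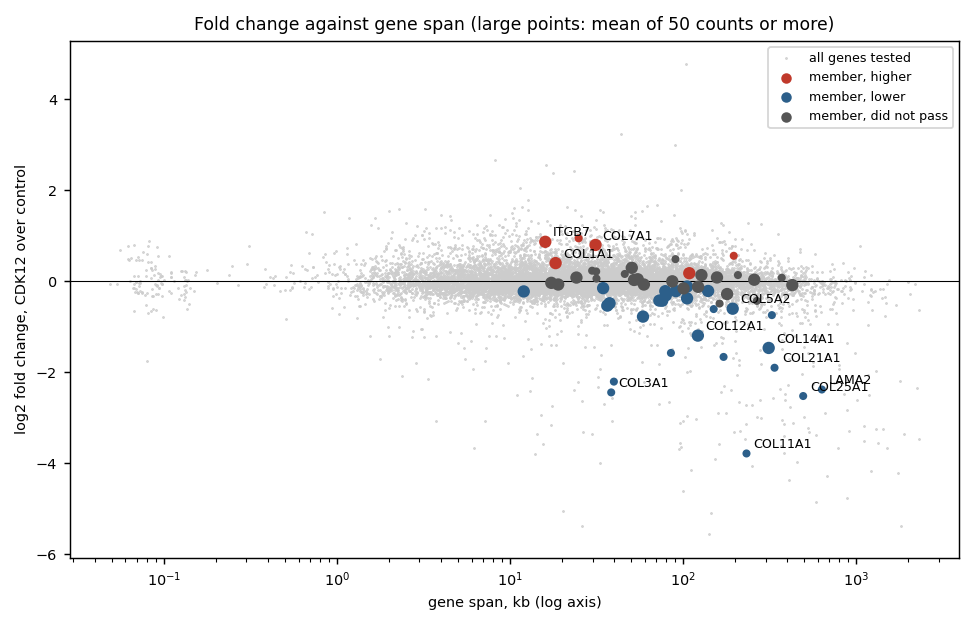
Log2 fold change, CDK12 over control, against gene span in kb on a log axis, for all genes tested with a span (light grey dots) and for the members (red: higher; blue: lower; dark grey: did not pass; large points have a mean of at least 50 counts). The largest falls among members, COL11A1 (-3.78) and COL25A1 (-2.52), lie at spans over 100 kb and low counts, COL3A1 and COL10A1 fell at spans under 100 kb, and COL7A1 and COL1A1 rose at spans under 100 kb.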

How the data were processed

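Messenger RNA of 6 libraries was measured, 3 per group. The deposited values are unnormalized counts for each gene symbol: they are whole and their totals differ between libraries. Libraries were made with a stranded kit from polyadenylated RNA, per the labels' protocols. The submitters' processing notes name CASAVA 1.8, STAR 2.6.0c, featureCounts (Subread 1.6.2) and hg19. Neither annotation nor strand setting nor the handling of multi-mapping reads is given in the sources used here, so overlapping genes are uncertain. Within each group, pairs of libraries differed by 2.74 to 4.54 times the variance that counting alone gives, so no library was counted as a repeat of another.

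From these counts, genes were filtered with filterByExpr (minimum count 10, minimum total 15), scaled by TMM and compared with edgeR 4.0.16 (quasi-likelihood F test, group as the only term, two-sided, Benjamini-Hochberg over 14665 genes, threshold 0.05). The SE is the size of the log2 fold change over the square root of F. Ratios of chains were tested with an exact two-sided permutation test. The alternatives used DESeq2 1.42.0 and limma 3.58.1; the edgeR test was tested on simulated counts. The precision of a low count is set by depth, and a count of 0 allows up to 3, for counting error only.

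The members, gene lists, pairs and markers were chosen with earlier results of these data known. Values in every library are given for members that passed with a change of at least 1.25-fold, the 2 with the highest CPM in each role, both chains of each pair reported and those at the count limit. Of each partner list, up to 4 called genes with the smallest p in the main direction and 2 in the other were named. Gene spans, exon lengths and overlaps came from GENCODE 29 on GRCh38, by symbol; 13777 of the genes tested matched. Of the 58 members at the count limit, 44 had a RefSeq promoter window. Of the members and markers, 2 genes are not reported here by name.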

Additional observations from a re-analysis of the deposited data

How the results depend on the processing

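Alternatives were 3 other scalings, 2 other filters, a replicate block, limma-voom, the Wald test of DESeq2, and fits without 1 library. Members called numbered 4 to 6 higher and 19 to 28 lower over all of them; the lowest counts came from the stricter filter (fewer genes tested) for falls, and from the Wald test of DESeq2 or the loss of CDK12 replicate 3 or control replicate 2 for rises. The genes of the partner lists called higher numbered 3 to 6 and those called lower 37 to 42 when 1 library was left out, with 3 higher without control replicate 3; the cause was not tested. The labels number the replicates alike in both groups, but same-numbered libraries did not deviate together (r = -0.093, 0.097 and 0.056 for replicates 1 to 3). With the replicate block, 6 members were higher and 24 lower (COL4A3 and COL22A1 no longer passed), and 5106 of all genes passed against 5143 without it. Signs turned only for members that did not pass. With upper-quartile factors and total counts, COL9A2 had a log2 fold change of 0.0038 and 0.0096. Leaving out 1 library, log2 fold changes ran over -0.12 to 0.040 for COL9A2, -0.0092 to 0.42 for COL11A2, -0.017 to 0.061 for COL16A1, -0.19 to 0.029 for COL24A1, -0.017 to 0.19 for COL2A1, -0.027 to 0.30 for COL4A2, -0.025 to 0.11 for COL4A5, -0.10 to 0.26 for ITGA9, -0.037 to 0.045 for ITGAE and -0.050 to 0.36 for ITGB2. Depth limits the scarce members: with a filter of 1 count in any library, 12 collagens were lower against 10 with the default filter. Antisense and overlapping genes stay uncertain without a stated strand setting.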
